A study of Mus musculus with 8 samples.

Results

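The replication-dependent histone genes are the clustered genes for histones H1, H2A, H2B, H3 and H4 whose symbols begin with Hist1h, Hist2h, Hist3h or Hist4h. All rows of the deposited expression table with such a symbol were taken, leaving out those marked as pseudogenes by "-ps" in the name, which gave 69 of 37305 rows. They comprised 6 H1, 20 H2A, 18 H2B, 12 H3 and 13 H4 members. In the GENCODE M21 annotation 3 of the 69 are not protein coding. Hist1h2aj and Hist1h2al are pseudogenes there, and the row labelled Hist2h2bb has the ID of a long noncoding RNA. RNA-seq was done on mouse iPS (induced pluripotent stem) cells, somatic cells reprogrammed to a state like that of embryonic stem cells. The mutator group had 5 libraries of cells homozygous for POLG D257A, and the control group had 3 libraries of wild-type lines from littermate embryos. POLG is the enzyme that copies mitochondrial DNA, and the D257A change removes its proofreading, so that mitochondrial DNA gathers mutations. All lines were grown on arrested feeder cells in medium with LIF, and each was kept on gelatin for 1 passage before total RNA was taken, which depletes the feeders.

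Histone proteins package DNA into nucleosomes, and a dividing cell must make a full new set each time it copies its genome. The replication-dependent genes are switched on as S phase begins and their mRNAs are destroyed when DNA synthesis ends. These mRNAs are the main animal mRNAs without a poly(A) tail. They end instead just after a conserved stem-loop, which the stem-loop binding protein SLBP holds through 3' end processing, translation and decay.

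The stem-loop was found in the GENCODE M21 (GRCm38) transcripts of 41 members. It is printed here for abundant genes of each class and for the members that stood apart, because H4 genes and the other classes differ in it. Capitals mark the 16 bases of stem and loop, and the lower-case letters are the flanking bases.
Hist1h1c (chr13:23739507-23739532, plus strand): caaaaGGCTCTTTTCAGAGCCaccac
Hist2h2ac (chr3:96220413-96220438, minus strand): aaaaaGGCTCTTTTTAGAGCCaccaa
Hist1h2ao (chr13:21810893-21810918, plus strand): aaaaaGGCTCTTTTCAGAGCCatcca
Hist1h2bb (chr13:23747198-23747223, plus strand): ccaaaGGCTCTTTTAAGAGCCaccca
Hist1h2bg (chr13:23571838-23571863, plus strand): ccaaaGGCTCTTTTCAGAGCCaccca
Hist1h3c (chr13:23745042-23745067, minus strand): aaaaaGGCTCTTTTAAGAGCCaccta
Hist1h4f (chr13:23551286-23551311, minus strand): tcaaaGGCCCTTTTCAGGGCCaccca
Hist1h4a (chr13:23760795-23760820, minus strand): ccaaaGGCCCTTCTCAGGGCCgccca
The stem-loop came in 7 forms, and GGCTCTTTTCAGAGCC was the most frequent, in 23 members. All H4 members with a match had a stem that begins GGCCC or GGTCC, while those of the other classes began GGCTC. A form with A in place of the C that follows TTTT, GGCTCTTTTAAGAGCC, was found in 5 members, among them Hist1h2bb and Hist1h3c. For the other members with a transcript the model held no match. The expression values carry no information about where an mRNA ended.

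Promoters were matched for 62 members in the RefSeq table (GRCm38.p6, from 250 bases before to 50 after the start), with 63 entries in all. The TATA box letters TATAAA were found on either strand in 55.6% of the member promoters and in 13.6% of all 32851 promoters. The CCAAT letters were in 85.7% and 37.4%. They were in all entries of H1, H2A, H2B and H3 and in 25% of the 12 H4 entries. The octamer ATTTGCAT was in 22.2% of member promoters and in 1.74% of all promoters. It was found in 7 of 18 H2A and 7 of 17 H2B entries, and in 0 of the H1, H3 and H4 entries. These are matches of letters, not sites of binding, and the motifs did not overlap each other in the promoters printed. Promoters of neighbouring H2A and H2B genes can overlap, so the same stretch can be counted in both classes. The octamer shared by Hist1h2ae and Hist1h2bg is an example, so the entries are not all separate sites. The promoters of an H1, an H2B and an H4 gene are printed to show the class difference, with the motif letters of either strand in capitals.
Hist1h1b (chr13:21780576-21780875, minus strand): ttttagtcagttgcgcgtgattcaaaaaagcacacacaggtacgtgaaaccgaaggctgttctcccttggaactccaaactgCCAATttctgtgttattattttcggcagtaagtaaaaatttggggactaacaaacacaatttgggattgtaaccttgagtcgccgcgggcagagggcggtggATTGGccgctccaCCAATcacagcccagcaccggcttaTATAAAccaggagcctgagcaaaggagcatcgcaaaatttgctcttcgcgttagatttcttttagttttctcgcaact
Hist1h2bg (chr13:23571150-23571449, plus strand): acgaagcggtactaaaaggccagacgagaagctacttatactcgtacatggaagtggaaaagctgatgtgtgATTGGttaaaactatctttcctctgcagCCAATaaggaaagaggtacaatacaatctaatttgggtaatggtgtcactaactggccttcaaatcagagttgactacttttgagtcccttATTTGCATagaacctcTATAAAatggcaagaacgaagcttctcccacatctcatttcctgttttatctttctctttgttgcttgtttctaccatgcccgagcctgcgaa
Hist1h4k (chr13:21750504-21750803, minus strand): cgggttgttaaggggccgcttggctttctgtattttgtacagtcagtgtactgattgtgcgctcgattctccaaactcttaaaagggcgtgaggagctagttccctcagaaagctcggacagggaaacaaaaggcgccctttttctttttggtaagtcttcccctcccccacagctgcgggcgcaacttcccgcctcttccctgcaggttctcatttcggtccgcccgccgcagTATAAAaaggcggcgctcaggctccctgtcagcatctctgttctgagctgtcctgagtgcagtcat
The H2B promoter held the octamer directly upstream of TATAAA, the H1 promoter held CCAAT letters and TATAAA, and the H4 promoter held TATAAA alone.

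The libraries are named by group and replicate. Mutator replicates 1 and 2 differed by a median of 0.0379 on the log2 scale over single-transcript genes, against 0.14 to 0.512 in the 12 other pairs within a group. Their difference was near that of fragment sampling at every depth, and their column headers share a code (u6 and u6_1), so they were averaged and counted as 1 sample. This left 4 mutator samples to compare with 3 wild-type samples. The wild-type headers share the number 7 (7a, 7b and 7c). If these lines came from 1 embryo, embryo and genotype cannot be told apart. The p-values measure the spread between these samples only. The deposited FPKM (fragments per kilobase, scaled to library size) summed to 753985 to 1780534 per library, with 11198 to 11899 genes at 1 FPKM or more, and the sequencing depth is unknown. Polg averaged 9.48 ± 0.539 FPKM over the 3 wild-type samples and 10.2 ± 1.93 FPKM over the 4 mutator samples (mean ± SD), and a point substitution need not alter this level.

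No histone gene passed the test between mutator and wild-type cells, and the summed levels of the groups overlapped. The summed level of all 69 members was 3942, 2180 and 1684 FPKM in wild-type replicates 1 to 3. The averaged mutator pair had 2160 FPKM, and mutator replicates 3 to 5 had 1293, 1972 and 3182 FPKM. Wild-type replicate 1 and mutator replicate 5 were high and mutator replicate 3 was lowest, so neither group stood above the other. With at least 1 FPKM on average, 61 members were tested on log2(FPKM + 1) with limma and Benjamini-Hochberg adjustment over 11949 genes. At an adjusted p below 0.05, 0 members were called higher and 0 lower, where 2.95% of all genes were called higher and 4.54% lower. At an unadjusted p below 0.05 there were 8 of 61, against 30.3% of all genes. In bulk RNA, the share of cells in S phase and the amount of histone mRNA per cell cannot be told apart.

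The classes differed in where their log2 changes (mutator minus wild type) lay, with H4 at the top and H2B at the bottom. The median log2 change was 0.71 over 11 tested H4 members, 0.14 over 5 of H1, 0.12 over 11 of H3, -0.12 over 18 of H2A and -0.30 over 16 of H2B. It was 0.12 over all 61 and -0.03 over all genes tested. All 11 H4 members lay above 0, against 5 of 16 H2B members, although the sign of Hist1h4a depended on the setting. Its log2 change was -0.43 without wild-type replicate 3, -0.42 with the replicate block, -0.18 without mutator replicate 5, -0.076 without wild-type replicate 2 and -0.049 with the 8 libraries as separate samples. The difference between the classes was not tested. Rescaling to TPM moved the median of all genes to 0.38, and on that scale H2A and H2B were at 0.28 and 0.10 and H4 at 1.08.

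**Figure D1:**
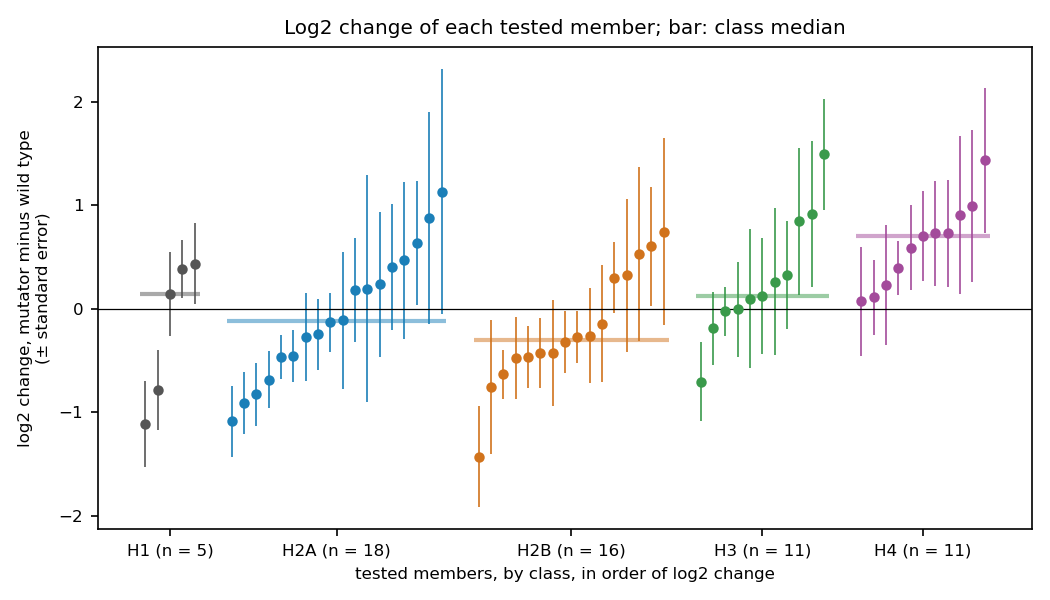
Log2 change (mutator minus wild type, on log2(FPKM + 1)) of each of the 61 tested members, ordered within its class, with its standard error as a bar and the class median as a thick line. All 11 H4 members lie above 0, although Hist1h4a, the lowest, was between -0.43 and -0.049 in 5 other settings given in the text, and the H2B median of -0.30 is the lowest of the classes.

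These medians moved with single libraries. Without wild-type replicate 1 the H4 median was 1.15, and without wild-type replicate 3 it was 0.27. The median of all members was 0.60 and -0.32 in the same settings. Non-overlapping groups were found for few members: 1 of 61 had all 4 mutator samples above the 3 wild-type samples, against 12.4% of all genes. That member, Hist2h3b, passed the filter only through the mutator samples. A further 4 had them all below, against 16.1% of all genes. These were Hist1h2aa, Hist1h2ag, Hist1h2ao and the row labelled Hist2h2bb.

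The histone genes varied widely among libraries of the same group. The median SD of log2(FPKM + 1) over the 3 wild-type samples was 0.798 for the 61 members and 0.206 for all genes. Over the 4 mutator samples it was 0.666 and 0.300. By class, the wild-type median SD was 1.16 for H3, 0.940 for H4, 0.821 for H2A, 0.660 for H2B and 0.647 for H1. This is a description of the libraries, with no test.

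The histone genes stood apart from all genes in the size of this difference, and less so in its order. Wild-type replicate 1 was the highest and replicate 3 the lowest wild-type sample in 41 of 61 members, against 40.4% of all genes. This order was found in 17 of 26 DNA replication genes, 6 of 10 replacement histone genes and 9 of 19 histone chaperone genes. It was found in 5 of 15 stem-loop processing genes, 3 of 8 histone mRNA decay genes and 1 of 8 S phase entry genes. Wild-type replicate 1 exceeded wild-type replicate 3 by 2-fold or more on FPKM + 1 in 38 of 61 members, where 3.78% of all genes did. The median log2 ratio was 1.42 for the members and 0.22 for all genes. The FPKM sums of these libraries were close, at 1205363 and 1192982. The ratio was seen in each class, with medians of 2.31 for H3, 1.87 for H4, 1.21 for H1, 1.19 for H2A and 1.03 for H2B. Across all 7 samples, wild-type replicate 1 was the highest in 24 members and mutator replicate 5 in 28, while wild-type replicate 3 was the lowest in 30.

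**Figure D2:**
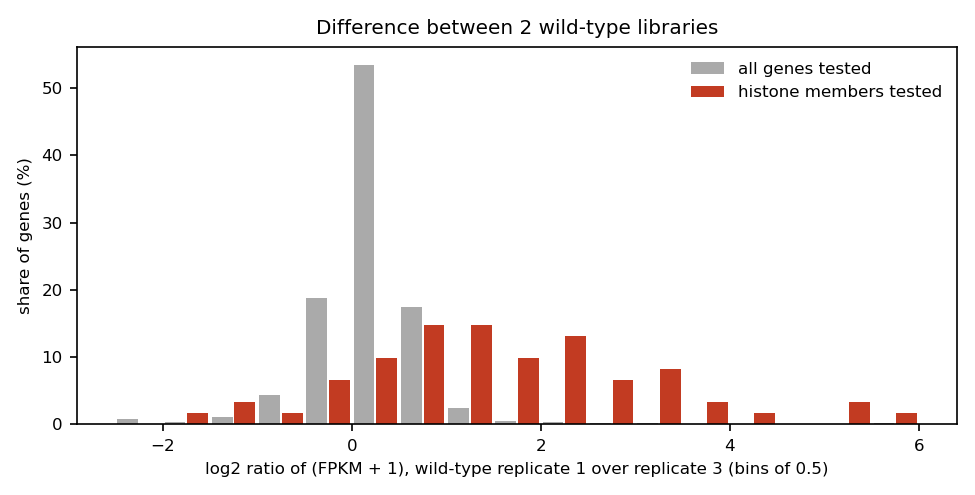
Share of genes (%) in each bin of the log2 ratio of FPKM + 1 in wild-type replicate 1 over wild-type replicate 3, for all genes tested (grey) and the 61 tested histone members (red). The histone members are shifted to the right, with a median of 1.42 against 0.22.

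The mutator lines showed a parallel difference. Mutator replicate 5 exceeded mutator replicate 3 by 2-fold or more in 36 of 61 members, where 7.69% of all genes did, with a median log2 ratio of 1.28 against 0.28 for all genes. It was the highest mutator sample for 50 of 61 members, where 51.8% of all genes had it highest. In class sums, mutator replicate 5 reached 432 FPKM for H1, 503 for H2A, 1695 for H2B, 127 for H3 and 425 for H4. Mutator replicate 3 had 268, 155, 700.2, 30.1 and 139.6 FPKM. The primitive endoderm marker list was also highest in mutator replicate 5, at a mean log2(FPKM + 1) of 4.53 over 7 tested genes against 1.53 to 1.67 in wild-type samples, and 2.95, 2.68 and 1.90 in the other mutator samples. Of the whole list, Gata6, Gata4 and Foxa2 measured 2.1, 6.51 and 2.04 FPKM there, and Gata6 and Foxa2 were below the filter. Not every listed gene was highest there. Pdgfra measured 3.52 FPKM, against 3.92 FPKM in the mutator pair. Amn, also below the filter, measured 0.600 FPKM, against 0.694 FPKM in wild-type replicate 3. The part of such cells in the histone values was not tested.

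**Figure D3:**
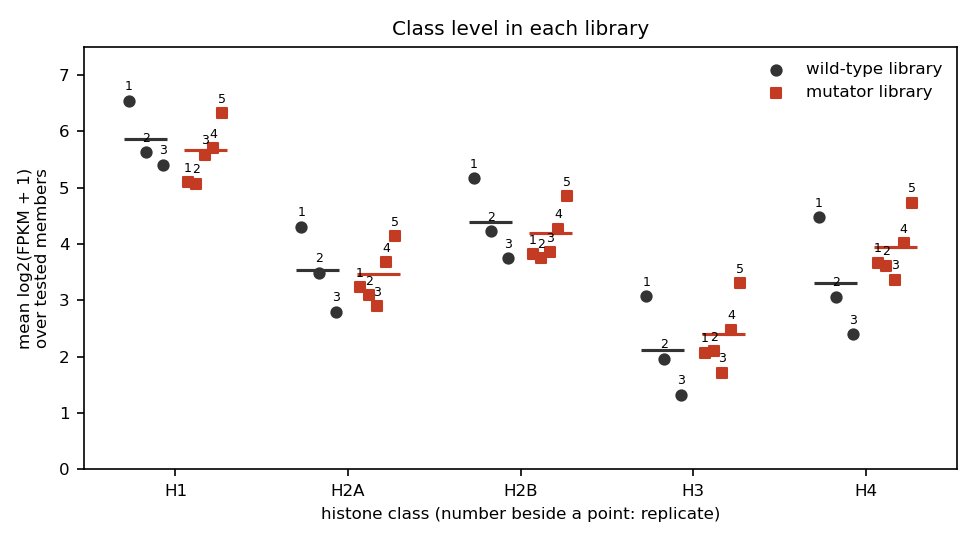
Mean log2(FPKM + 1) over the tested members of each histone class in each library, with wild-type libraries as black circles, mutator libraries as red squares and the replicate number beside each point. Lines are group means over 3 wild-type and 4 mutator samples (mutator 1 and 2 averaged), and in every class wild-type 1 and mutator 5 are the highest points of their group.

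Linker histones bind where DNA enters and leaves the nucleosome, and the main H1 gene here was Hist1h1a, for subtype H1.1. It lies at chromosome 13, 23763666 to 23764406 (GENCODE M21, GRCm38, matched by gene ID), and made up 37.9% of the class sum. It measured 239.9, 133 and 122 FPKM in wild-type replicates 1 to 3 and 47.9, 109, 99.3 and 131 FPKM in the mutator samples, always given as the averaged pair and then replicates 3, 4 and 5. The pair was lowest and the groups overlapped through mutator replicate 5 (log2 change -0.78, standard error 0.39, limma adjusted p = 0.211). The change was -0.48 without wild-type replicate 1 or without the pair. Hist1h1b, for subtype H1.5, measured 180.4, 78 and 62.7 FPKM in wild-type samples and 26.9, 47.9, 42.2 and 67.8 FPKM in mutator samples. Of the mutator samples only replicate 5 exceeded the lowest wild-type value (log2 change -1.11, standard error 0.42, limma adjusted p = 0.12). Without wild-type replicate 1 it was -0.66. Hist1h1c, for the widely expressed subtype H1.2, lay the other way and was highest in mutator replicate 5. It had 87.6, 43.5 and 37.2 FPKM in wild-type and 54.4, 52.2, 71.5 and 125 FPKM in mutator samples, and its log2 change was 0.44 (limma adjusted p = 0.472), ranging from 0.17 without mutator replicate 5 to 0.80 without wild-type replicate 1. The 2 genes with the lowest log2 changes, Hist1h1a and Hist1h1b, shared no 50-base stretch with another member. The testis gene Hist1h1t was below the filter.

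Among the H2A genes, which code for a core histone that pairs with H2B, a few members varied over an extreme range. Hist1h2af (chromosome 13, 23533906 to 23534304) measured 132, 37.3 and 1.37 FPKM in wild-type replicates 1 to 3, a 96.3-fold span among controls. Mutator samples had 29.4, 30.4, 62 and 105 FPKM, all within the wild-type range. The group means were equal, 56.7 ± 67.2 FPKM (SD, n = 3) for wild-type against 56.7 ± 35.6 FPKM (SD, n = 4) for mutator cells. Its log2 change was 1.13 ± 1.19 (standard error), and -0.50 without wild-type replicate 3. Hist2h2ac, on chromosome 3 (96220361 to 96220880), followed the same order at 91, 23.9 and 1.74 FPKM in wild-type and 19.2, 24.6, 36.3 and 66.6 FPKM in mutator samples. Without wild-type replicate 3 its log2 change went from 0.87 to -0.50. Hist1h2ab measured 46.1, 23.2 and 11.1 FPKM in wild-type and 33.8, 11, 35.8 and 64.7 FPKM in mutator samples, with a log2 change of 0.40 and of -0.09 without wild-type replicate 3.

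In 8 of 61 members wild-type replicate 3 was the highest wild-type sample, and 5 of these were H2A members. Hist1h2ao and Hist1h2ap are 2 of them. Hist1h2ao (chromosome 13, 21810465 to 21810944) measured 11.7, 15.3 and 33.4 FPKM in wild-type replicates 1 to 3. It measured 7.95, 7.84, 11.4 and 5.83 FPKM in the mutator samples, all below the lowest wild-type value. Its log2 change was -1.09 ± 0.35 (standard error), and its limma adjusted p of 0.0852 was the smallest among the members. Without wild-type replicate 3, its highest sample, the change was -0.67 (limma adjusted p = 0.2). Its near copy Hist1h2ap, which has 93.5% of 50-base transcript windows in common with it, measured 15, 24 and 29.1 FPKM in wild-type and 8.2, 10.4, 18 and 10.05 FPKM in mutator samples. Its log2 change was -0.91 (limma adjusted p = 0.0923). Summed, the 2 genes measured 42.8 ± 18.1 FPKM (SD, n = 3) and 19.9 ± 6.4 FPKM (SD, n = 4). With the 8 libraries as separate samples both passed (limma adjusted p = 0.044 and 0.0471), in a fit that called 7.58% of all genes higher and 10.9% lower.

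Values of single H2A copies moved in opposite directions within the wild-type group. Hist1h2an measured 44.3, 12.3 and 0.235 FPKM in wild-type replicates 1 to 3. Hist1h2aj, a pseudogene in GENCODE M21, measured 1.25, 2.6 and 7.77 FPKM there, and Hist1h2ao was highest in replicate 3. Pairs sharing at least 80% of their 50-base windows join 5 H2A members, Hist1h2ad, Hist1h2ah, Hist1h2ai, Hist1h2aj and Hist1h2an. Their sum was 98, 44.8 and 31.2 FPKM in wild-type and 42.1, 24.3, 45.1 and 91.9 FPKM in mutator samples, so wild-type replicate 1 and mutator replicate 5 were high and wild-type replicate 3 and mutator replicate 3 low. How reads were divided among such copies was not tested, and the value of a single copy is uncertain. Of 62 members with a transcript, 28 shared at least 50% of their windows with other members and 12 shared under 10%. The 8 tested members under 10% had a median log2 ratio of wild-type replicate 1 over 3 of 1.19. The 21 from 10% to under 50% had 1.80, and the 25 at 50% or more had 1.26. Windows were compared only among members with a transcript, and the part of shared sequence in this ratio was not tested.

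H2B transcripts were the most abundant of the family, led by 3 genes. Hist1h2bb (chromosome 13, 23746734 to 23747241) held 40.4% of the class sum and did not have the common order of libraries. It measured 683, 687 and 438 FPKM in wild-type and 966, 238, 423 and 605 FPKM in mutator samples. The mutator 1 and 2 pair was highest, mutator replicate 3 lowest, and the groups overlapped (log2 change -0.26, standard error 0.46, limma adjusted p = 0.73). Hist1h2bg (chromosome 13, 23571396 to 23572013), whose promoter is printed above, measured 273, 138 and 78 FPKM in wild-type and 329.6, 93.9, 182 and 405 FPKM in mutator samples. Mutator replicate 5 was highest and wild-type replicate 3 lowest (log2 change 0.60, standard error 0.57, limma adjusted p = 0.497). Without wild-type replicate 3 the change was 0.17, and without wild-type replicate 1 it was 1.07. Hist1h2bn had the highest log2 change of the class, 0.75, at 31.1, 11 and 0.667 FPKM in wild-type and 9.01, 8.66, 12.8 and 31.8 FPKM in mutator samples. Its change was -0.44 without wild-type replicate 3.

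The row labelled Hist2h2bb had the lowest log2 change of all members. It measured 1015, 472 and 455 FPKM in wild-type replicates 1 to 3 and 101, 222, 287 and 382 FPKM in mutator samples, so the groups did not overlap. The log2 change was -1.43, with 0.49 as its standard error and 0.0981 as limma's adjusted p. It was -1.05 without wild-type replicate 1 or without the mutator pair. The gene ID of this row belongs in GENCODE M21 to Gm42743, a long noncoding RNA at chromosome 3, 96269721 to 96279001, that overlaps Hist2h2bb on the same strand. Whether its reads came from the histone gene was not tested. Without this row the summed level of the other 68 members was 2927, 1708 and 1228 FPKM in wild-type and 2059, 1072, 1685 and 2800 FPKM in mutator samples.

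H3 transcripts were the least abundant, with class sums of 25.8 to 127 FPKM. The median SD of single members among wild-type samples was the largest of the classes, 1.16 against 0.940 for H4. For the class mean of log2(FPKM + 1) the wild-type SD was larger for H4, at 1.06 against 0.884 for H3. Hist1h3c (chromosome 13, 23744973 to 23745602) measured 21, 6.03 and 1.98 FPKM in wild-type and 10.7, 5.77, 15.9 and 32.6 FPKM in mutator samples. The highest value was in mutator replicate 5 and the lowest in wild-type replicate 3 (log2 change 0.92, standard error 0.71, limma adjusted p = 0.404). Its change was 0.23 without wild-type replicate 3 and 1.67 without wild-type replicate 1. Hist1h3e followed with 12.7, 3.32 and 1.69 FPKM in wild-type and 10.2, 2.46, 8.28 and 24.2 FPKM in mutator samples, and its change was 0.34 and 1.52 in the same settings. Hist1h3b had the lowest log2 change of the class, -0.70, at 20.8, 11.2 and 11.8 FPKM in wild-type and 5.4, 5.3, 9.73 and 15.9 FPKM in mutator samples (limma adjusted p = 0.244). It was -0.44 without wild-type replicate 1. The groups of all 3 genes overlapped.

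Hist2h3b was the 1 member with all mutator samples above all wild-type samples. Every wild-type library listed it at 1.9e-06 FPKM or less. Mutator replicates 1 to 5 had 0.350, 3.19, 7.06e-06, 2.43 and 5.61 FPKM. Mutator replicate 3 was thus at practically 0 as well, and replicates 1 and 2 differed. The gene shared 79.7% of its windows with other members. On the FPKM + 1 scale its log2 change was 1.49 ± 0.54 (standard error; limma adjusted p = 0.111), and no fold is given against values near 0. It passed the filter only through the mutator samples and so had to differ. Without mutator replicate 3 it was called (limma adjusted p = 0.0274, in a fit that called 4.86% of all genes higher and 4.31% lower). With array weights it was also called (limma adjusted p = 0.0136, in a fit that called 14.5% of all genes higher and 15.8% lower). These calls are therefore given as a description.

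**Figure D4:**
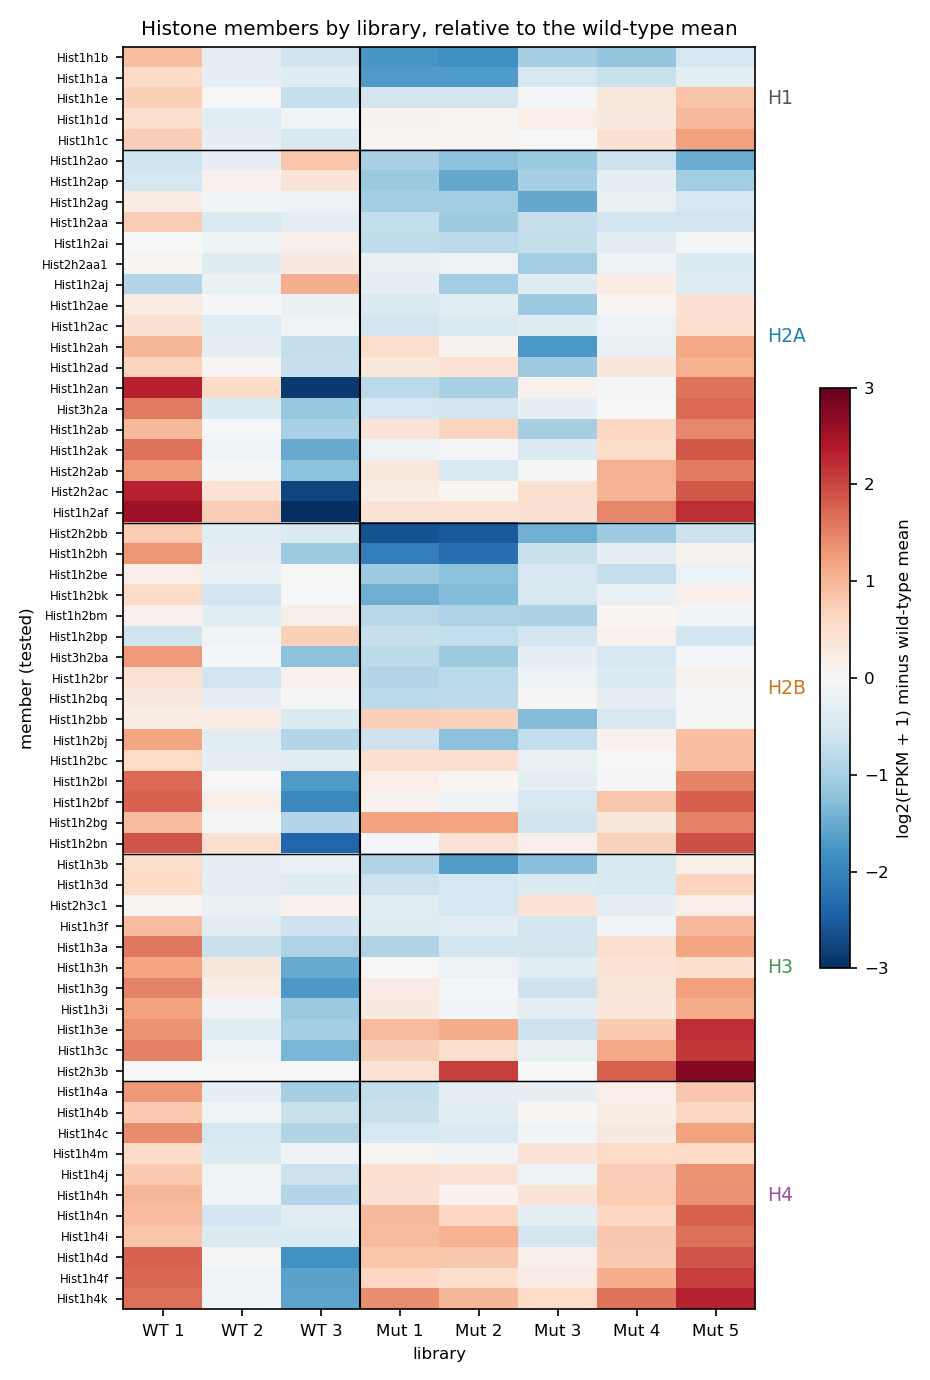
Log2(FPKM + 1) of the 61 tested members in each of the 8 libraries, minus the mean of the wild-type libraries, with members grouped by class and ordered by log2 change. Red is above and blue below the wild-type mean, colours end at 3 and -3, and the columns of wild-type 1 and mutator 5 are red for most members while wild-type 3 is mostly blue.

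The H4 genes code for the partner of H3, and most followed the same library order. Wild-type replicate 1 was 2-fold or more above replicate 3 in 10 of 11 tested members, and mutator replicate 5 was the highest mutator sample in 11 of 11. Hist1h4d (chromosome 13, 23581598 to 23582735) led the class with 132, 39.1 and 10.1 FPKM in wild-type and 67.7, 42.3, 65.9 and 143 FPKM in mutator samples. Wild-type replicates 2 and 3 lay below all mutator samples, while replicate 1 lay within their range (log2 change 0.91, standard error 0.76, limma adjusted p = 0.441). The change was 0.0012 without wild-type replicate 3 and 1.80 without wild-type replicate 1. Hist1h4f measured 59.2, 15.8 and 4.92 FPKM in wild-type and 25.9, 20.6, 37.4 and 75.7 FPKM in mutator samples, and again wild-type replicates 2 and 3 lay below all mutator samples. Its change of 0.99 became 0.19 and 1.86 when the same samples were left out. Hist1h4k (chromosome 13, 21750194 to 21750505) had the highest log2 change of the class, 1.43 ± 0.70 (standard error; limma adjusted p = 0.205). It measured 18.2, 4.76 and 1.03 FPKM in wild-type and 13, 8.15, 17.7 and 29.2 FPKM in mutator samples. The change was 0.64 without wild-type replicate 3 and 2.26 without wild-type replicate 1. With array weights limma's adjusted p was 0.047, in a fit that called 14.5% of all genes higher. Hist1h4a, with a stem-loop form found in no other member, had the lowest, 0.07, at 54, 17.3 and 10.2 FPKM in wild-type and 14.9, 17.9, 24.8 and 38.3 FPKM in mutator samples. For the class as a whole the sums were 370.4, 115 and 55.6 FPKM in wild-type and 185, 139.6, 223 and 425 FPKM in mutator samples. Wild-type replicate 1 stood within the mutator range and replicates 2 and 3 below it, so the groups overlapped.

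By position, the largest group of members, 25 between 23531050 and 23764406 on chromosome 13, had a median log2 change of 0.27 over 24 tested. The 16 members between 21715763 and 21837530 had -0.04, and 5 between 22035164 and 22043676 had -0.15. The median log2 ratio of wild-type replicate 1 over 3 was 1.62, 0.99 and 1.25 in these groups. It was 1.26 over 19 members whose transcript model ends within 60 bases of the stem-loop and 1.42 over 17 whose model runs on beyond that. Over 18 members whose model held no stem-loop it was 1.33, and over 7 with IDs absent from GENCODE M21 it was 2.31. The part of the transcript model in this ratio was not tested.

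Some factors that process histone mRNA fell in mutator cells. The 0 calls among histone members do not show that their levels were unchanged. Their median wild-type SD of log2(FPKM + 1) was 0.798 against 0.206 for all genes, and recovery of changes among them was not measured. Slbp, for the stem-loop binding protein, measured 51.9, 56.2 and 59.8 FPKM in wild-type replicates 1 to 3 and 16.3, 30.9, 20.9 and 20.1 FPKM in mutator samples. Its wild-type values were close together and all mutator values lay below them (log2 change -1.34, standard error 0.23, limma adjusted p = 0.0278). Casp8ap2, for the FLASH protein of the processing complex, and Srrt, for ARS2, fell by 0.70 and 1.02 (log2), with limma adjusted p of 0.0412 and 0.0374. Of all genes 4.54% fell in this fit. Of 15 tested genes for stem-loop processing and histone transcription 3 fell and 0 rose, with a median log2 change of -0.54. Of 8 for histone mRNA decay 0 passed, and Eri1, for the exonuclease that trims the stem-loop, measured 8.21 ± 0.386 and 5.27 ± 0.806 FPKM (limma adjusted p = 0.0594). Histone chaperones escort new histones to DNA. Of 19 tested, 2 fell and 0 rose: Nasp, which holds H3 and H4 in reserve, from 207 ± 20.7 to 95.4 ± 28.7 FPKM, and Asf1a, for another H3 and H4 chaperone, from 15.9 ± 1.02 to 8.06 ± 1.43 FPKM (limma adjusted p = 0.0443 and 0.0314). Of 10 replacement histone genes, whose mRNAs are mostly polyadenylated and not tied to S phase, 0 passed. H3f3a, for H3.3, measured 111 ± 23.7 FPKM in wild-type and 66.9 ± 19.1 FPKM in mutator samples (limma adjusted p = 0.107), and H2afz, for H2A.Z, 458 ± 134 and 228 ± 89.6 FPKM (limma adjusted p = 0.109). Some genes of S phase itself also fell. Ccne1 and Ccne2, for the E-type cyclins that activate CDK2 at S phase entry, were 2 of 8 tested genes of that list to fall, with log2 changes of -1.49 and -1.22. Of 26 DNA replication genes 9 fell and 0 rose, with a median log2 change of -0.76. Pcna, the sliding clamp, measured 119, 85.9 and 79.7 FPKM in wild-type and 27.6, 46, 33.6 and 45.8 FPKM in mutator samples. In all 6 lists 16 genes fell, and this count was 0 when wild-type replicate 1, 2 or 3 or the mutator pair was left out, 1 without mutator replicate 4 and 10 without mutator replicate 5. It was 0 after rescaling to TPM, which shifts all genes upward, 31 when scaled by median-of-ratios size factors, and 40 under array weights. The last 2 fits also called more of all genes: 9.92% lower and 8.09% higher with size factors, and 15.8% lower and 14.5% higher with array weights. No share of all genes is given for TPM or for these fits with a sample left out. A count of 0 there is therefore not a result about these lists.

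Among libraries of a group these genes varied less than the histone transcripts did. Wild-type replicate 1 was 2-fold or more above replicate 3 in 0 of 26 DNA replication genes, 0 of 8 S phase entry genes, 0 of 15 stem-loop processing genes and 0 of 19 chaperone genes. Their median log2 ratios were 0.35, 0.04, 0.26 and 0.29. Replacement histones had 2 of 10 and a median of 0.72. Mutator replicate 5 was 2-fold or more above replicate 3 in 0 genes of the first 4 lists.

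Noncoding RNAs, most of which carry no ordinary poly(A) tail, were followed beside the histone mRNAs. The labels give total RNA and a standard Illumina library protocol, and they do not say whether poly(A) RNA was selected. The 7SK RNA Rn7sk, which restrains transcription elongation, measured 4588, 1928 and 1529 FPKM in wild-type replicates 1 to 3. It measured 3035, 1365, 3079 and 6060 FPKM in the mutator samples. The RNase P RNA Rpph1 measured 1445, 368 and 214 FPKM in wild-type and 876, 265, 667 and 1777 FPKM in mutator samples. In both, wild-type replicate 1 and mutator replicate 5 were high and wild-type replicate 3 and mutator replicate 3 low, as for the histone sums. Of 11 such RNAs listed 9 were matched and tested, and 4 of these had wild-type replicate 1 at 2-fold or more over replicate 3, with a median log2 ratio of 0.90, and 6 had mutator replicate 5 at 2-fold or more over replicate 3. Malat1 was level in wild-type samples, at 1237, 1231 and 1256 FPKM. In mutator samples it measured 2888, 1304, 1621 and 2754 FPKM, lowest in replicate 3, and it is 1 of the 6. Neat1 was the 1 RNA of the list that rose, with a log2 change of 1.36. Rn7sk and Rpph1 were singled out after their values were seen, and the part of RNA selection in the histone spread was not tested.

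**Figure D5:**
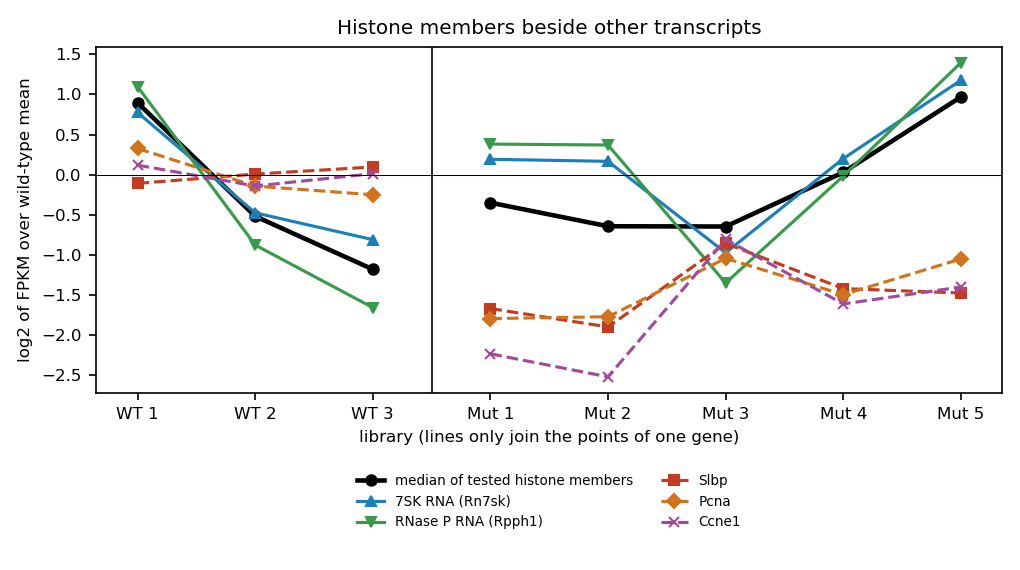
Log2 of FPKM over its wild-type mean in each library for the median of the 61 tested histone members, Rn7sk, Rpph1, Slbp, Pcna and Ccne1. The histone median, Rn7sk and Rpph1 are high in wild-type 1 and mutator 5, while Slbp and Ccne1 are level among wild-type libraries, Pcna goes from 119 to 79.7 FPKM there, and all 3 are lower in all mutator libraries.

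Markers of other cells were also followed. Of 12 tested pluripotency genes 0 passed, with a median log2 change of -0.05, and 7 lay below 0. Tdgf1 and Pou5f1 had the smallest p, and all their mutator samples lay below all wild-type samples. Tdgf1 measured 329.5 ± 26.1 and 127.5 ± 68.5 FPKM (mean ± SD in wild-type and mutator samples, log2 change -1.50, limma adjusted p = 0.0506). Pou5f1 measured 262.6 ± 26.4 and 147.9 ± 36.2 FPKM (log2 change -0.85, limma adjusted p = 0.0724). The feeder fibroblast list had a mean log2(FPKM + 1) of 1.28, 1.51 and 1.72 in wild-type and 2.79, 3.07, 1.6 and 1.5 in mutator samples over 11 tested genes, with 0 called. Its order ran against that of the histone sums within the wild-type group, and the mutator pair and replicate 3 had the most feeder signal. The mean log2(FPKM + 1) of the histone members was 3.38 and 3.24 there, against 3.85 and 4.46 in mutator replicates 4 and 5. On summed FPKM the pair, at 2160, lay above mutator replicate 4, at 1972. Its part in the result was not tested.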

How the data were processed

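RNA was measured in 8 libraries of mouse iPS cells, grouped by the sample titles. The authors deposited FPKM values, 1 column per library. STAR and Cufflinks are named in the submitters' processing notes, and their versions, the genome build, the annotation and the strandedness are not given in the sources used here. FPKM are not counts and the depth is unknown, so no count test was used. Rows of the 265 symbols found more than once were summed. Genes averaging 1 FPKM or more were tested on log2(FPKM + 1), which understates the change of low genes, with limma 3.58.1 in R 4.3.3 (eBayes with trend) and Benjamini-Hochberg adjustment. The 8 members below this filter had means of at most 0.967 FPKM. On simulated data of 4 against 3 samples and 11930 genes, 20% of changes of 1 on the log2 scale were recovered, 85% of 2 and 95.5% of 3. The 200 changed genes were drawn at random from all genes, each with its own spread. The histone members varied more than all genes, with a median wild-type SD of 0.798 against 0.206. Recovery among the members was not measured, so these shares do not apply to them. In GENCODE M21, 7 member IDs were absent, 3 had another symbol and 26 members overlapped another gene. Symbols of small RNAs were matched there by ID. Shared sequence was the share of 50-base transcript windows found in other members. The members and all gene lists were chosen with earlier results of these data known. The named genes were the 3 most abundant members of each class, the highest and lowest log2 change of each class, and up to 4 called genes per list, or 2 where none was called. Alternatives covered the pseudocount, the filter, the scaling, the samples left out and summed copies. Python 3.11.15, pandas 2.3.3, numpy 2.4.6 and matplotlib 3.10.9 were used.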

Additional observations from a re-analysis of the deposited data

Results flagged for a closer look

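Neat1 is a nuclear long noncoding RNA of the list followed beside the histone mRNAs. It rose from 15.5 ± 1.95 FPKM (SD, n = 3) in wild-type to 42.1 ± 9.34 FPKM (SD, n = 4) in mutator samples (log2 change 1.36, limma adjusted p = 0.0275). Mutator replicate 5 stood apart at 28.3 FPKM, against 44.6 to 47.9 FPKM in the other mutator samples, so that its gap to the nearest sample was 0.83 of the group's range, just above Dixon's 95% critical value for 4 samples. Of 42 groups of 4 samples examined this was the 1 above that value, and chance gives about 1 in 20.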

How the results depend on the processing

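Under 18 alternatives, 322 of 340 values of the 19 named members kept their direction and their side of the threshold. With array weights 5 members were called higher and 4 lower, where 14.5% and 15.8% of all genes were. The 5 included Hist2h3b, which passed the filter only through the mutator samples and so had to differ. With the 8 libraries as separate samples 2 were called lower, where 10.9% of all genes were. Leaving out 1 sample at a time gave 0 to 1 members called higher and 0 to 0 lower. The 1 was Hist2h3b without mutator replicate 3, in a fit that called 4.86% of all genes higher. No share of all genes is given for the other fits with a sample left out, for TPM, for no filter or for the replicate block. A count of 0 there is therefore not a result about these genes. The log2 change of Hist1h2bb became 0.25 under TPM, and that of Hist1h4a became -0.049 with 8 separate libraries. With samples left out, the ranges were -0.090 to 0.89 for Hist1h2ab, -0.50 to 2.4 for Hist1h2af, -0.58 to 0.088 for Hist1h2bb (-0.47 without wild-type replicate 3), -0.44 to 1.69 for Hist1h2bn, -0.43 to 0.72 for Hist1h4a and -0.50 to 2.03 for Hist2h2ac. Class medians ranged from -0.20 to 0.50 for H1, -0.36 to 0.24 for H2A, -0.46 to -0.10 for H2B, -0.32 to 0.89 for H3 and 0.27 to 1.15 for H4. The genes of the 6 lists called lower were 16, against 0 with no filter, 0 under TPM, 31 with median-of-ratios size factors, 31 with 8 libraries, 40 with array weights and 0 to 14 with samples left out. Those called higher were 0, against 1, 4, 1 and 5 under TPM, size factors, 8 libraries and array weights, and 0 to 1 with samples left out. The cause was not tested.

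Same-numbered samples of the groups shared only a number, with correlations of their deviations of 0.013, -0.012 and 0.051. The replicate block over replicates 1 to 3 gave 0 members called in either direction, 0 genes of the lists called lower, and log2 changes of 0.039 for Hist1h2bb and -0.42 for Hist1h4a. Summing members that share 80% of their windows was chosen after the data were seen and left 0 members called.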
